A study of Mus musculus with 6 samples.

Results

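Among the genes that mark mouse embryonic stem (ES) cells, 7 were followed by name in RNA-seq libraries of extraembryonic endoderm (XEN) and ES cells. They were Dppa2, Dppa3, Dppa4 and Dppa5a of the developmental pluripotency associated group, together with L1td1, Utf1 and Fbxo15. They were selected by gene symbol and not by a cutoff on their values, though earlier results of these data were known. They are 7 of 17710 genes found in any library, of which 16753 carry a symbol. XEN cells are stable lines of primitive endoderm, the tissue behind the endoderm of the yolk sac. The XEN cells were of strain ICR and grew in RPMI1640 with 15% FBS, glutamine and beta-mercaptoethanol. The ES cells, a culture counterpart of the pluripotent epiblast, came from strain 129/Ola and grew on 0.1% gelatin in N2B27 with 2i inhibitors and LIF. Each group held 3 libraries of total RNA, A, B and C, sequenced on the BGISEQ-500 platform, and the study set out to characterise the metabolism and mitochondria of XEN cells. The groups differ in strain and medium as well as in cell type, and these cannot be told apart.

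Genes of this kind were first picked out because their transcripts are abundant in pluripotent cells, the early embryo and germ cells, and several were tried as reprogramming factors. DPPA2 and DPPA4 are SAP domain proteins that bind DNA as a pair at CpG-rich and bivalent promoters, where repressive and active histone marks sit together. DPPA5A is a KH domain RNA-binding protein, and DPPA3 (also called Stella or PGC7) is a maternal and germ cell protein that opposes maintenance of DNA methylation through UHRF1. L1TD1 is an RNA-binding protein derived from the first open reading frame of a LINE retrotransposon. UTF1 is a chromatin-bound protein of pluripotent cells that limits Polycomb loading. FBXO15 is an F-box protein, a substrate receptor of SCF ubiquitin ligases, whose locus served as a reporter in early reprogramming experiments.

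The libraries held 21134720 to 22375875 expected counts in XEN cells and 20675311 to 22037793 in ES cells, so that 3 counts in a library came to 0.134 to 0.145 CPM (counts scaled to a common library size). Of 13581 genes that passed a filter on low counts, 6337 were lower in XEN cells by the edgeR quasi-likelihood test at an adjusted p of 0.05, which is 46.7%, and 5707 were higher, which is 42%. A change of more than 2-fold (edgeR glmTreat, same threshold) left 3175 lower genes, or 23.4%. Whether libraries A, B and C were separate cultures is not stated in the labels, so p-values reflect only how much these libraries vary, possibly for technical reasons. In bulk RNA, fewer cells that express a gene and less RNA per cell cannot be told apart. Identity markers followed the labels. The 9 XEN markers, Gata4, Gata6 and Sox17 among them, summed to 16270 to 18640 CPM in XEN libraries and 109.5 to 123.3 CPM in ES libraries. The 7 naive ES markers summed to 188.6 to 211 CPM in XEN libraries and 5153 to 5286 CPM in ES libraries. Trophoblast markers were low in both groups, with 8.19 to 9.54 CPM in XEN and 7.33 to 8.50 CPM in ES libraries, and so were fibroblast markers, with 7.25 to 9.51 CPM in XEN and 6.50 to 6.63 CPM in ES libraries. Of 5 tested trophoblast markers, Plac1 (6.55 CPM in XEN and 0 CPM in ES cells), Gata3 (1.02 CPM in XEN and 0.0896 CPM in ES cells) and Cdx2 (0.840 CPM in XEN and 0.148 CPM in ES cells) were higher in XEN cells. Tfap2a (0.592 CPM in XEN and 5.97 CPM in ES cells) and Ascl2 (0.0157 CPM in XEN and 1.67 CPM in ES cells) were lower. Of 2 tested fibroblast markers, Pdgfrb was higher, at 7.68 CPM in XEN and 3.42 CPM in ES cells, and Thy1 was lower, at 0.175 CPM in XEN and 2.85 CPM in ES cells. Tfap2a, Ascl2 and Thy1 passed the filter only through ES libraries, and Plac1, Gata3 and Cdx2 only through XEN libraries. The direction of these genes was thus nearly fixed. The trophoblast and fibroblast markers were named after their values were seen, and their part in the results was not tested. The remaining genes found of these lists, Elf5, Psg17, Col1a1, Col1a2, Col3a1 and Dcn, averaged under 0.2 CPM in both groups.

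The 7 genes fell into 3 patterns. Dppa5a, Dppa4 and Dppa2 averaged 1650, 27.5 and 17.6 FPKM in ES cells. In XEN cells they were present at less than 1% of the ES level by their named rows. L1td1, Fbxo15 and Utf1 were lower in XEN cells but kept 36.5%, 16.3% and 11.2% of the ES level. Dppa3 was close to the detection limit in ES cells and unlisted in every XEN library. The name "ES-restricted" therefore describes Dppa2, Dppa4 and Dppa5a, whereas L1td1, Fbxo15 and Utf1 were expressed in both cell types. The 6 tested genes were all called lower in XEN cells. Such a call alone sets a gene little apart, since 46.7% of all tested genes were called lower and 42% higher. Dppa3 did not pass the low-count filter; the other 6 did, and Dppa2, Dppa4 and Dppa5a passed it only through the ES libraries, so that a count of called genes among them says nothing beyond their levels. The same holds for many genes of the lists described with them: over all genes, 1936 reached the filter's minimum of 0.455 CPM in fewer than 3 XEN libraries, and 95.9% of these were called lower. In the lists below that held such genes, they are counted apart as genes that passed through ES libraries.

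**Figure D1:**
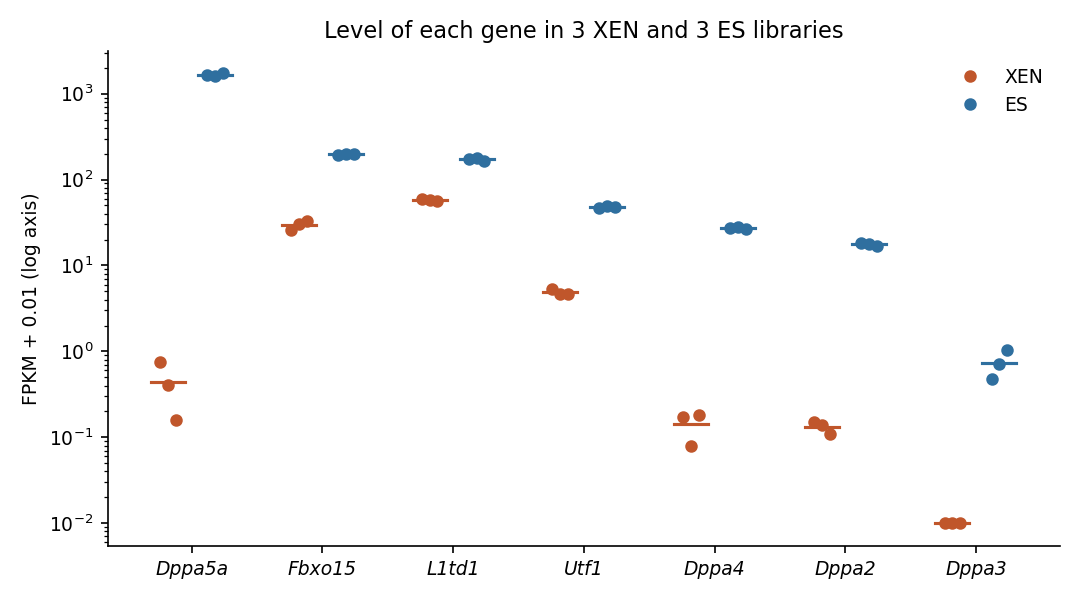
FPKM + 0.01 on a log axis for each gene in the 3 XEN libraries (orange) and the 3 ES libraries (blue), in the order of the mean ES level, with a bar at each group mean. Every XEN point of a gene lies below its ES points. L1td1, Fbxo15 and Utf1 stay above 4 FPKM in XEN libraries, while the 4 Dppa genes are below 1 FPKM there.

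The 5′ flanks of 2 of the 7 genes were in the promoter table at hand (RefSeq, GRCm38.p6) and are shown because both genes belong to those that XEN cells still express. The 250 bases before the start are printed 5′ to 3′ on the plus strand for L1td1 (chr4:98726504-98726753) and for Utf1 (chr7:139943606-139943855), with matches to the GC box GGGCGG in capitals.
L1td1: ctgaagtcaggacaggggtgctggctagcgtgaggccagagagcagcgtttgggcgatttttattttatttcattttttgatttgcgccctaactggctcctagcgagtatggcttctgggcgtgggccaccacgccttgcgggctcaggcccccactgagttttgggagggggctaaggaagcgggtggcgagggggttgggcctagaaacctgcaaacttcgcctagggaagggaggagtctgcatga
Utf1: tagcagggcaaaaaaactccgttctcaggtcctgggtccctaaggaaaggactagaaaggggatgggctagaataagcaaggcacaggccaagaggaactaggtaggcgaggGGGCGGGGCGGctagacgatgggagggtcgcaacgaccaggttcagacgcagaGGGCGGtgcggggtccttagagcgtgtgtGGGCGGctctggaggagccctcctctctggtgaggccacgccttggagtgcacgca

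Both promoters were richer in GC and in CpG than the median promoter. Over the 300 bases from 250 before to 50 after the start, Utf1 had 62.0% GC and 17 CpG dinucleotides, an observed over expected CpG ratio of 0.615. L1td1 had 58.7% GC and 14 CpG dinucleotides, a ratio of 0.559. The median over 32851 promoters was 52.7% GC and a ratio of 0.384, and the 2 genes stood at the 65.2 and 61.7 percentile of that ratio. Utf1 held 4 matches to GGGCGG, the GC box of SP and KLF factors, with first bases 138, 133, 85 and 56 bases before the start, the first 2 of them overlapping by 1 base. Matches on either strand to GGGCGG occur in 35.7% of all promoters. L1td1 held no match to GGGCGG, and neither promoter held the octamer ATGCAAAT (1.74% of all promoters), CATTGT of SOX factors (12.6%), TCAAGGTCA of the ESRRB type (0.423%), CACGTG (7.15%), CCAAT (37.4%) or TATAAA (13.6%). A match is a run of letters and not a binding site, and the absence of these letters from the window says nothing of the factors.

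The KH domain gene Dppa5a had the highest level of the 7 in ES cells and the largest fold difference of the 6 tested. Its FPKM was 0.75, 0.40 and 0.15 in XEN libraries A, B and C, against 1628.44, 1594.05 and 1728.78 in ES libraries A, B and C. The expected counts behind these values were 9, 4.78 and 1.71 in XEN cells, against 18566.46, 19106.58 and 20837.73 in ES cells. Library A was the highest of the XEN libraries and library C the lowest, all of them far below the ES libraries. The log2 fold change was -11.70 ± 0.41 (SE, n = 3 libraries a group; edgeR adjusted p = 5.19e-23), or 3323-fold lower in XEN cells. The summed XEN level came to 0.0282% of the ES level, with an exact (Clopper-Pearson) 95% interval of 0.0154% to 0.0455%. Such intervals cover counting error only. The standard errors were computed from log2 CPM with a prior count of 2, which damps the scatter of genes with few counts. Dppa5a ranked 42 among genes with a symbol by mean FPKM in ES cells and 10768 in XEN cells. Its log2 fold change lay below those of all but 40 of the 13581 tested genes (0.295%). Further reads went to 3 unnamed gene models annotated to other Dppa5 copies, with summed counts of 0, 1.22 and 2.76 in XEN libraries A to C, against 268.0, 268.4 and 272.5 in ES libraries. Reads of such copies may be split between models, so the level of Dppa5a itself is uncertain by that amount, and with all 4 rows summed the log2 fold change was -11.48 (edgeR adjusted p = 3.09e-27).

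Dppa4 and Dppa2, the SAP domain pair, were lower by similar factors. Dppa4 had 0.16, 0.07 and 0.17 FPKM in XEN libraries A to C, against 27.57, 28.40 and 26.50 FPKM in ES libraries A to C. These values rest on 5, 2 and 5 counts in XEN cells, against 813, 889 and 831 in ES cells. The groups were far apart, and XEN library B was the lowest. The log2 fold change of Dppa4 was -7.57 ± 0.28 (SE, n = 3 each; edgeR adjusted p = 3.53e-21), or 190.5-fold lower in XEN cells, which kept 0.513% of the ES level (exact 95% interval 0.263% to 0.892%).

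Dppa2 had 0.14, 0.13 and 0.10 FPKM in XEN libraries A to C, against 18.34, 17.57 and 17.01 FPKM in ES libraries A to C. Its expected counts were 5.91, 5.44 and 4 in XEN cells, against 698.09, 707.18 and 689.24 in ES cells. No XEN library came near the ES range. The log2 fold change of Dppa2 was -6.99 ± 0.11 (SE, n = 3 each; edgeR adjusted p = 6.93e-21), or 126.8-fold lower, and XEN cells kept 0.785% of the ES level (exact 95% interval 0.430% to 1.27%). With so few XEN counts, the exact intervals of Dppa4 and Dppa2 are wider than their standard errors imply. The intervals of Dppa4 and Dppa2 overlap, so which of the pair kept the larger share was not detectable at this depth. In ES libraries Dppa4 stood at 1.503, 1.616 and 1.558 times the FPKM of Dppa2, an even ratio, while in XEN libraries the ratio of these few counts was 1.14, 0.539 and 1.70.

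One unnamed gene model annotated to Dppa2 behaved differently from the named gene. It held 12.09, 15.56 and 7.0 expected counts in XEN libraries A to C, against 25.91, 20.82 and 24.76 in ES libraries, and so kept 52.2% of its ES level. In every XEN library it held more counts than Dppa2 itself. Summed with Dppa2, it brought the XEN share to 2.48% of the ES level and the log2 fold change to -5.32 (edgeR adjusted p = 6.96e-20), or 40.02-fold lower, against 126.8-fold for the named row. The remainder of Dppa2 in XEN cells is thus uncertain, since the files do not show which locus these reads came from. The sum was chosen after the data were seen.

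In mouse ES cells DPPA2 and DPPA4 act upstream of Dux and the genes of a state like that of 2-cell embryos. Of 21 such genes 15 were in the files and only the translation factor gene Eif1a was tested, at 192.0 CPM in XEN cells and 267.8 CPM in ES cells (log2 fold change -0.48). The other 14, among them Zscan4c, Zfp352 and the Usp17l genes, averaged under 0.12 CPM in both groups. No difference in this list was detectable at this depth beside that of Eif1a. Of 12 tested germline genes with methylation-sensitive promoters, 11 were lower and 1 higher in XEN cells, beside 46.7% lower and 42% higher over all tested genes. However, 10 of the 11 passed the filter through ES libraries, so their direction was nearly fixed. The median log2 fold change was -8.89 as fitted and -7.41 with the 4 genes at 0 in XEN cells set to their bound, beside -0.07 over all tested genes. Rpl10l, a testis ribosomal protein gene, averaged 0.0155 CPM in XEN and 51.0 CPM in ES cells, and the meiotic genes Hormad1 and Syce1 averaged 0.0157 and 0 CPM in XEN and 11.7 and 10.9 CPM in ES cells. The exception, named after its values were seen, was the testis bromodomain gene Brdt, at 3.77 CPM in XEN and 0.265 CPM in ES cells.

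Dppa3 could hardly be measured in either cell type. It was absent from all 3 XEN tables and taken as 0 there, and it had 0.47, 0.70 and 1.02 FPKM in ES libraries A, B and C. The ES values rest on 7, 11 and 16 counts, whose exact Poisson 95% intervals of 2.81 to 14.4, 5.49 to 19.7 and 9.15 to 26.0 overlap. A count of 0 in a XEN library has an upper limit of 3.69 counts by the same interval. Against 3 counts over the XEN group, Dppa3 was 10.5-fold lower in XEN cells, a bound that leaves out the counting error of the ES libraries. The exact 95% counting interval for the XEN share reached up to 12.3% of the ES level. The bound of 10.5-fold rests on few counts and came to 6.97-fold without XEN library A and 6.94-fold without XEN library B. The gene failed the low-count filter and had no test in the comparison as fitted. Without the filter, edgeR gave an adjusted p of 2.5e-07 for it.

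The 12 genes for DNA methylation and its upkeep around DPPA3 were all tested, and 7 were lower and 5 higher in XEN cells (median log2 fold change -0.85). Over all tested genes 46.7% were lower and 42% higher, with a median of -0.07. Uhrf1, whose protein DPPA3 binds, averaged 223.1 CPM in XEN and 701.5 CPM in ES cells (log2 fold change -1.65), while its relative Uhrf2 averaged 124.5 CPM in XEN and 46.9 CPM in ES cells (1.41). The 5-methylcytosine oxidases did not move together. Tet1 (-2.68) and Tet2 (-4.04) were lower in XEN cells and Tet3 (4.71), at 68.6 CPM in XEN and 2.62 CPM in ES cells, was higher. Zfp57, which guards imprints, and its partner Trim28 were lower, by log2 fold changes of -3.31 and -1.27, and the methyltransferase gene Dnmt3b was higher (2.13). Of 12 tested primordial germ cell genes, a list that also names Dppa3, 10 were lower and 2 higher in XEN cells, beside the same 46.7% and 42% of all tested genes, and 9 of the 10 passed the filter through ES libraries. Alpl, the alkaline phosphatase used to stain ES and germ cells, averaged 0.190 CPM in XEN and 368.4 CPM in ES cells. Prdm14 and Tfap2c, which act in germ cell specification, had log2 fold changes of -10.69 and -9.73. Kit and Elf3 were the higher pair, by 0.46 and 0.30.

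L1td1 was the member with the smallest difference among the 6 tested and the highest level in XEN cells. It had 59.47, 57.54 and 55.62 FPKM in XEN libraries A to C, against 174.83, 178.18 and 163.20 FPKM in ES libraries A to C. The spread within each group was small, with a coefficient of variation of CPM of 3.27% in XEN and 4.23% in ES cells, and the groups did not overlap. In CPM, L1td1 averaged 178.0 ± 5.81 in XEN cells and 487.7 ± 20.6 in ES cells (SD, n = 3 each). Its log2 fold change was -1.45 ± 0.04 (SE; edgeR adjusted p = 3.02e-18; glmTreat against 2-fold 1.92e-10), or 2.74-fold lower in XEN cells. They kept 36.5% of the ES level, with an exact 95% interval of 35.8% to 37.3%, and L1td1 ranked 1480 among genes with a symbol there, against 390 in ES cells. Its fold change is not extreme, since 2814 tested genes (20.7%) had a lower one.

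In human ES cells L1TD1 works with LIN28 in RNA-protein complexes. Of 9 genes of such RNA-binding proteins, all of them tested, 4 were higher and 2 lower in XEN cells (4 lower with upper-quartile scaling), with a median log2 fold change of 0.09. Over all tested genes 42% were higher and 46.7% lower, with a median of -0.07. Lin28a averaged 972.2 CPM in XEN cells and 183.6 CPM in ES cells (log2 fold change 2.40), opposite in direction to L1td1. Igf2bp2 averaged 529.1 CPM in XEN and 188.6 CPM in ES cells (1.49), and Lin28b 24.1 CPM in XEN and 15.2 CPM in ES cells (0.66). Elavl1 and Ybx1, general RNA-binding protein genes, were lower by small amounts, with log2 fold changes of -0.15 each.

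Fbxo15, the F-box gene, ranked next to L1td1 by level in both cell types. It had 25.66, 30.21 and 32.73 FPKM in XEN libraries A to C, against 195.49, 196.45 and 200.84 FPKM in ES libraries A to C. The XEN libraries varied more (coefficient of variation of CPM 11.97%) than the ES libraries (1.66%), and library A was the lowest of them, well below the ES range. Its log2 fold change was -2.62 ± 0.10 (SE, n = 3 each; edgeR adjusted p = 1.70e-11; glmTreat against 2-fold 4.0e-10), or 6.13-fold lower. XEN cells kept 16.3% of the ES level (exact 95% interval 15.7% to 16.9%).

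Of 7 tested genes for the core of the SCF ligase and for its neddylation cycle, 4 were higher and 2 lower in XEN cells (median log2 fold change 0.21), and 3 were higher and 3 lower with upper-quartile scaling or without composition factors. The scaffold gene Cul1 averaged 385.1 CPM in XEN and 113.0 CPM in ES cells (1.77), Nedd8 135.8 CPM in XEN and 54.2 CPM in ES cells (1.32), and Ube2m, whose product attaches NEDD8, 169.0 CPM in XEN and 73.7 CPM in ES cells (1.20). The adaptor gene Skp1a and the deneddylase gene Cops5 were lower, by -0.19 each. Of the 31 other tested genes with an Fbxo symbol, 16 were lower and 11 higher, with a median of -0.15. Of the 16, 4 passed the filter through ES libraries. Of the 27 that passed it in XEN libraries, 12 were lower and 11 higher. Both lists stand beside 46.7% lower and 42% higher of all tested genes, with a median of -0.07. Fbxo22 (-1.44) and Fbxo30 (-1.15) were lower, and Fbxo34 (1.57), Fbxo9 (1.11) and Fbxo21 (0.70) were higher.

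Utf1 had 5.36, 4.63 and 4.68 FPKM in XEN libraries A to C, against 46.27, 48.60 and 48.09 FPKM in ES libraries A to C. These values rest on 126, 109 and 104 counts in XEN cells, against 1013, 1124 and 1120 in ES cells. XEN library A was the highest of its group and still far from the lowest ES library. The log2 fold change of Utf1 was -3.16 ± 0.07 (SE, n = 3 each; edgeR adjusted p = 9.52e-20), or 8.92-fold lower, and XEN cells kept 11.2% of the ES level (exact 95% interval 9.98% to 12.5%). With over 100 counts in each XEN library, Utf1 lay well above the 3-count limit there.

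UTF1 shares bivalent promoters with the Polycomb complex PRC2 and is linked to mRNA decapping through DCP1A. Of 10 genes of this list, all tested, 7 were lower and 3 higher in XEN cells (median log2 fold change -0.55). Over all tested genes 46.7% were lower and 42% higher, with a median of -0.07. The PRC2 core gene Eed (-1.83) and the accessory genes Mtf2 (-2.41) and Jarid2 (-1.81) were lower. Mtf2 averaged 79.7 CPM in XEN and 424.7 CPM in ES cells. The catalytic subunit gene Ezh2 (0.26), the histone chaperone gene Rbbp7 (1.47) and Dcp1a (0.90) were higher.

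**Figure D2:**
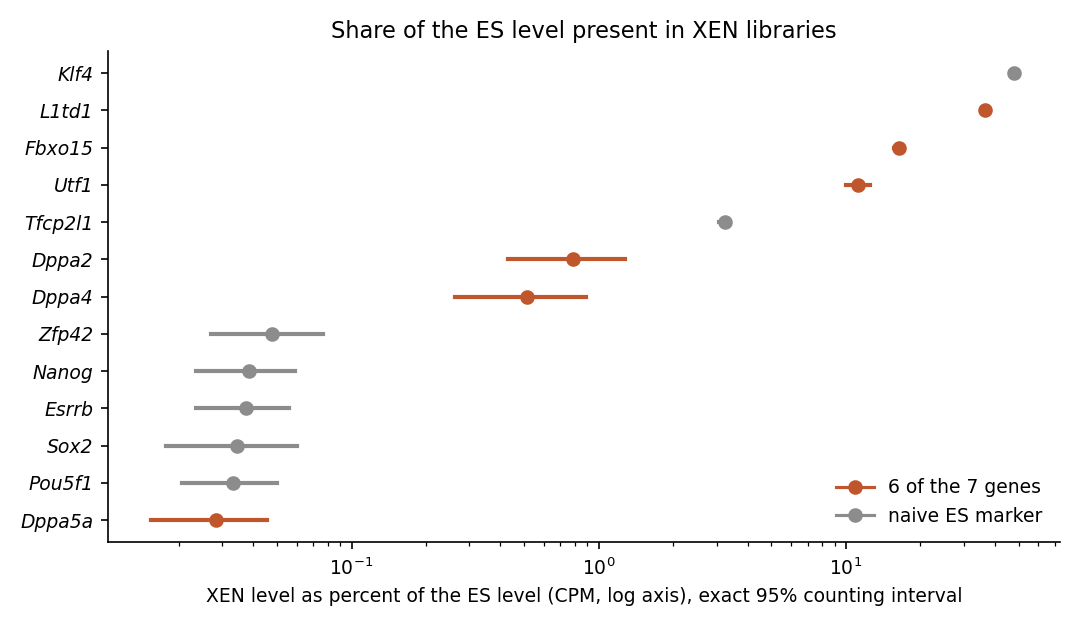
XEN level as a percent of the ES level in CPM (log axis) for the 6 tested genes (orange) and the 7 naive ES markers (grey), with exact 95% counting intervals. Dppa5a, at 0.0282%, lies beside Pou5f1, Sox2, Esrrb, Nanog and Zfp42. Dppa4 and Dppa2 lie above these, and Utf1, Fbxo15 and L1td1 lie between Tfcp2l1 and Klf4.

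Set beside the naive ES markers, the share that XEN cells kept differed from gene to gene. Dppa5a kept about as little as the core factors, with 0.0282% beside 0.0332% for Pou5f1 (exact 95% interval 0.0206% to 0.0498%), 0.0344% for Sox2 and 0.0384% for Nanog. The intervals of Dppa4 and Dppa2 lie above those of the 5 lowest markers. Utf1, Fbxo15 and L1td1 kept more than Tfcp2l1 (3.23%) and less than Klf4 (48.0%), 2 naive factors that XEN cells also expressed. Among 6604 genes with at least 25 CPM in ES cells, 238 (3.604%) kept under 1% and 852 (12.9%) kept between 5% and 50% of the ES level. These limits were set after the values were seen, so they only place the genes.

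Ordered by mean FPKM, which sets genes of different length on 1 scale, the ES level ran from Dppa5a (1650 ± 70.0) through Fbxo15 (198 ± 2.85), L1td1 (172 ± 7.86), Utf1 (47.7 ± 1.23), Dppa4 (27.5 ± 0.953) and Dppa2 (17.6 ± 0.668) to Dppa3 (0.730 ± 0.276, SD, n = 3). No neighbours in that order overlapped. In XEN cells the order was L1td1 (57.5 ± 1.93), Fbxo15 (29.5 ± 3.58) and Utf1 (4.89 ± 0.408), each apart from the next, followed by Dppa5a (0.433 ± 0.301), Dppa4 (0.133 ± 0.0551) and Dppa2 (0.123 ± 0.0208). The ranges of Dppa5a and Dppa4 overlapped, as did those of Dppa4 and Dppa2. The summed FPKM of the 7 genes was 91.5, 93.0 and 93.5 in XEN libraries A to C, against 2091, 2064 and 2185 in ES libraries. L1td1 gave 62.1% ± 2.73 and Fbxo15 31.9% ± 3.54 of that sum in XEN cells, while Dppa5a gave 78.1% ± 0.951 of it in ES cells (SD, n = 3 each). Fbxo15 stood at 0.431, 0.525 and 0.589 times the FPKM of L1td1 in XEN libraries A to C and at 1.12, 1.10 and 1.23 times in ES libraries, so L1td1 was the higher of the pair in every XEN library and Fbxo15 in every ES library.

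**Figure D3:**
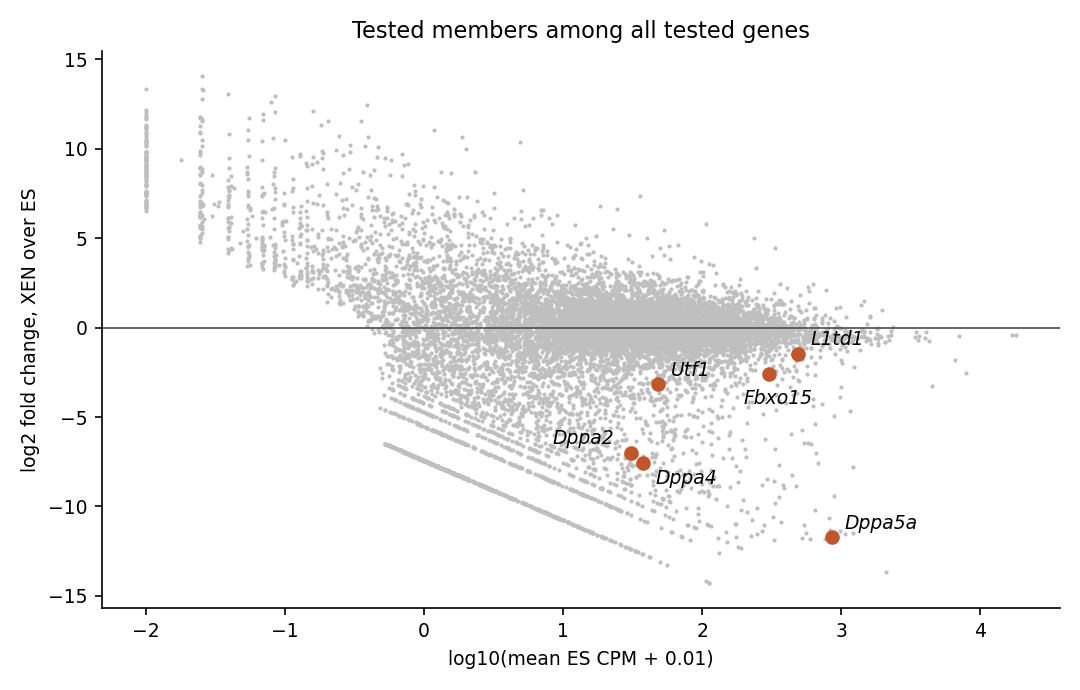
Log2 fold change (XEN over ES) against log10 of the mean ES CPM + 0.01 for all 13581 tested genes (grey), with the 6 tested members in orange. The slanted lines at the lower left are genes with 0 to a few counts in XEN libraries, whose fitted fold changes depend on the prior count. Dppa5a lies at the lower edge at its ES level, Dppa4 and Dppa2 lie inside the cloud of strongly lower genes, and L1td1 lies closest to the bulk.

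**Figure D4:**
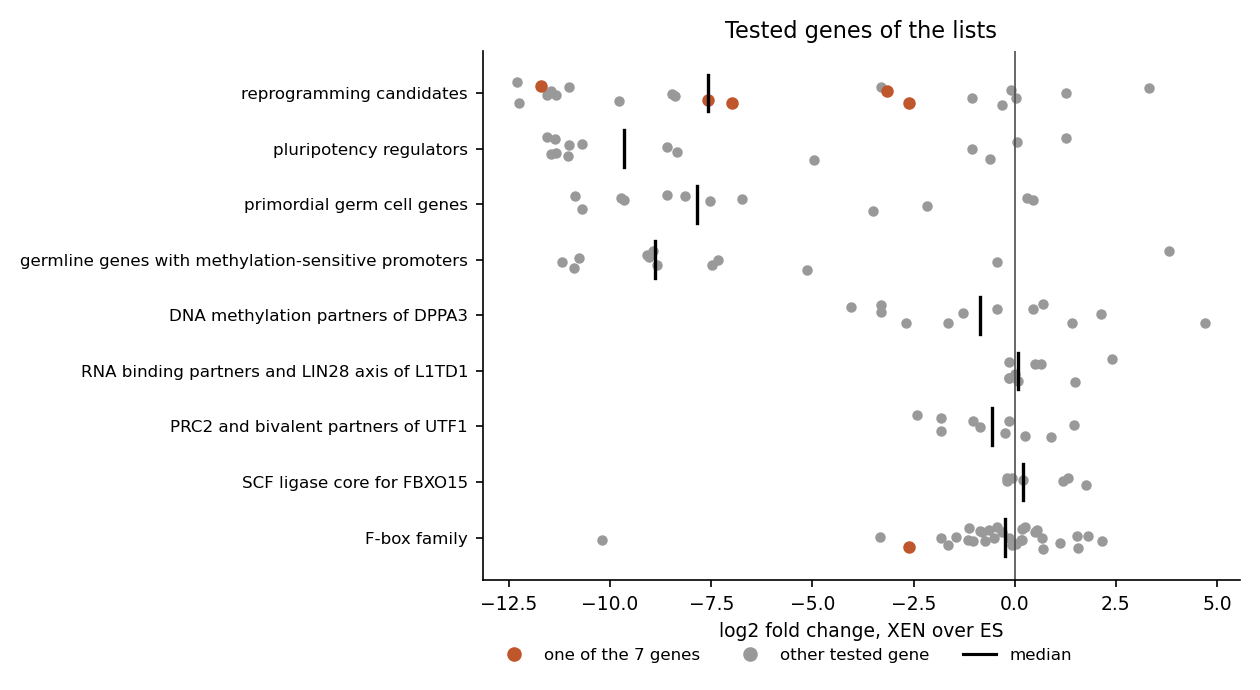
Log2 fold change (XEN over ES) of each tested gene in 9 lists (points, spread vertically for legibility), with the median of each list as a black bar and the members in orange. The reprogramming candidates reach from -12.30 for Tcl1 to 3.31 for Myc, and the SCF list lies between -0.19 and 1.77. The lowest F-box gene is Fbxo27, with 0 counts in XEN cells and a fitted value that depends on the prior count.

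Among 23 genes once proposed as reprogramming candidates, a list that holds 6 of the 7 genes (all but L1td1), 21 were tested. The 16 that are not members held 13 lower and 2 higher genes, beside 46.7% and 42% of all tested genes. Of the 13, 9 passed the filter through ES libraries, and of the 7 that passed it in XEN libraries 4 were lower and 2 higher. The median log2 fold change of the 16 was -8.43 as fitted and -6.07 with the 2 genes at 0 in XEN cells set to their bound. The AKT co-activator gene Tcl1 averaged 0.0313 CPM in XEN and 189.6 CPM in ES cells, and the TGF-beta family ligand gene Gdf3 averaged 0.0331 CPM in XEN and 182.5 CPM in ES cells. Myc went the other way, with 65.8 CPM in XEN and 6.62 CPM in ES cells (3.31), and so did Sall4, a zinc finger gene of both lineages, with 503.6 CPM in XEN and 210.3 CPM in ES cells (1.26). Ctnnb1, the most abundant of the list by the mean over all 6 libraries, had a log2 fold change of -0.08 (edgeR adjusted p = 0.0477). Of 14 pluripotency regulators, 12 were lower, 8 of them having passed the filter through ES libraries, and 1, Sall4, was higher, with a median of -9.64. Without XEN library A, 2 of them were higher. Of a list of KH domain genes of oocyte and embryo and their partners, 3 were tested beside Dppa5a. Khdc3 and Ooep, which share the KH domain, were lower, both having passed the filter through ES libraries, and Tle6, a WD repeat gene named after its values were seen, was higher (1.75). Ooep averaged 0.0419 CPM in XEN and 47.4 CPM in ES cells. Of 6 tested genes of the formative and primed epiblast list, 5 were lower and 1 higher, beside 46.7% and 42% of all tested genes. Of the 5, 4 passed the filter through ES libraries, and of the 2 that passed it in XEN libraries 1 was lower. Lefty2 averaged 0.0801 CPM in XEN and 326.1 CPM in ES cells, and Dnmt3b was the higher gene.

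**Figure D5:**
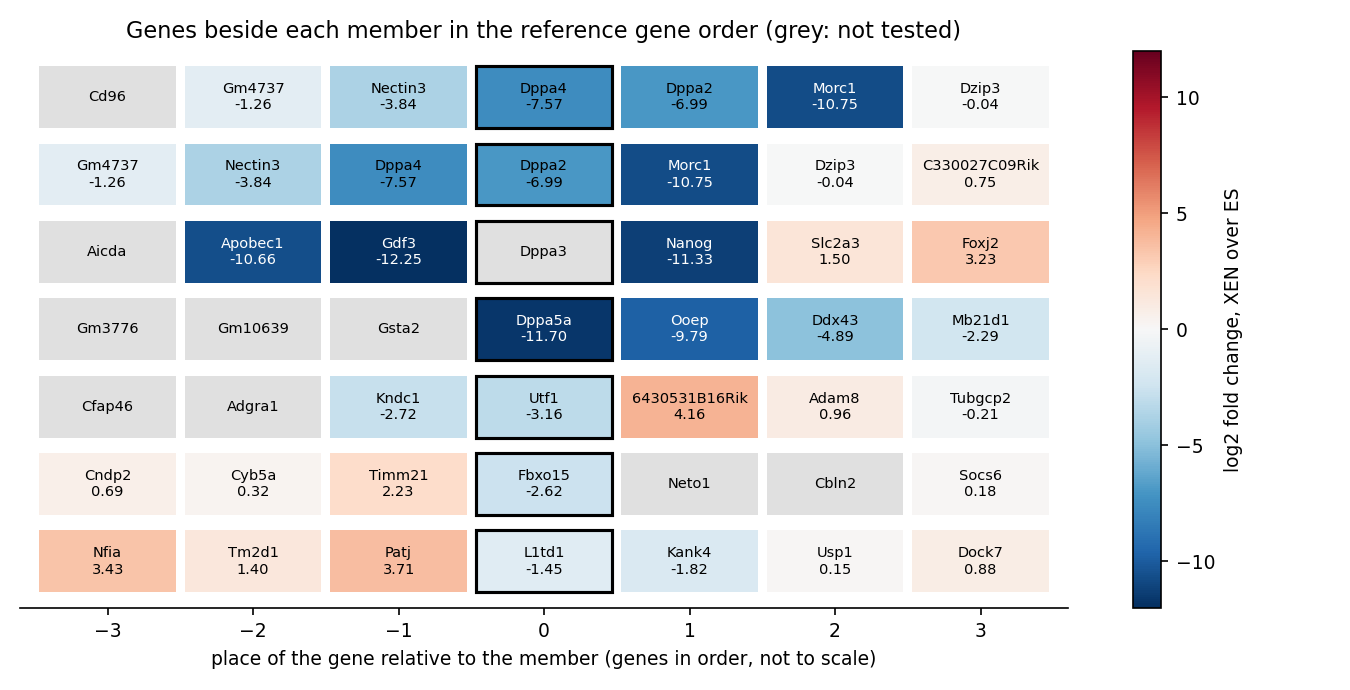
Log2 fold change (XEN over ES) of each member (black frame) and of the 3 nearest protein-coding genes in the files on each side, in the gene order of the reference annotation and not to scale. Blue is lower and red is higher in XEN cells, and grey is not tested. The rows of Dppa4, Dppa2, Dppa3 and Dppa5a hold the darkest neighbours (Morc1, Gdf3, Nanog, Ooep and Apobec1, the last with 0 counts in XEN cells and a fitted value that depends on the prior count).

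The genes beside the members were read by name and order from the reference annotation. Of 36 neighbours that are not members, 27 were tested, of which 12 (44.4%) were lower and 14 higher in XEN cells, beside 46.7% and 42% of all tested genes, with a median log2 fold change of 0.15. The share of lower neighbours was thus near the background. Among the lower ones, Morc1, Gdf3, Apobec1, Nanog, Ooep, Ddx43, Mb21d1 and Kndc1 passed the filter through ES libraries, so their direction was nearly fixed. Among the higher ones, Nfia and 6430531B16Rik passed it through XEN libraries. Dppa4 and Dppa2 are adjacent, and next to Dppa2 is Morc1, a gene of transposon silencing in germ cells, which averaged 0.127 CPM in XEN and 228.5 CPM in ES cells (-10.75). On the other side, Nectin3, a cell adhesion gene, averaged 3.63 CPM in XEN and 52.3 CPM in ES cells (-3.84). Beyond Morc1, Dzip3 did not pass the test (-0.04, edgeR adjusted p = 0.509). Dppa3 lies between Gdf3 (-12.25) and Nanog (-11.33). Past Nanog came Slc2a3, a glucose transporter gene that was higher at 4138 CPM in XEN and 1467 CPM in ES cells (1.5). Dppa5a has Ooep (-9.79), the helicase gene Ddx43 (-4.89) and Mb21d1, the gene of the DNA sensor cGAS (-2.29), on 1 side. L1td1 stands between Patj (3.71) and Kank4 (-1.82), Utf1 between Kndc1 (-2.72) and 6430531B16Rik (4.16), and Fbxo15 beside Timm21 (2.23), so the nearest gene on at least 1 side of each of these 3 was higher in XEN cells.

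Genes with the most similar pattern were found by the smallest root mean square difference of log2(FPKM + 0.1) over the 6 libraries, a measure that rests on level as well as on difference. For Dppa5a they were Spp1 (0.744), Pou5f1 (0.982) and Hmga1b (1.27), further off by this measure than the nearest genes of the other members. Spp1 had a similar log2 fold change (-11.50) at a lower ES level of 954.5 FPKM. The few XEN counts of Dppa5a also enter the measure. For Dppa4 the most similar genes were Epb41l4a (0.146), Phf11d (0.183) and Armcx1 (0.301), and for Dppa2 Grhl3 (0.163), Nup210 (0.191) and Cpsf4l (0.200). For Dppa3 they were Tmem45a (0.149), Mall (0.159) and Asb9 (0.163), all with 0 counts in XEN libraries. L1td1 was nearest to Bax (0.109), Hdac2 (0.114) and Eif3m (0.160), Utf1 to Cbx7 (0.133), Itpk1 (0.156) and Fkbp5 (0.171), and Fbxo15 to Glo1 (0.145), Wdr5 (0.163) and Stmn1 (0.234).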

How the data were processed

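RNA of 3 XEN and 3 ES libraries was measured, and the titles gave groups and letters. The mm9 build and the tools RSEM, Bowtie2 and DESeq2 are named, per the submitters' processing notes, without version or role. The deposited tables hold expected counts, of which 83.9% to 84.2% had no fractional part as deposited (to 2 decimals), and the authors' FPKM per gene. Each lists only genes with at least 0.01 FPKM, and an absent gene was taken as 0. Strand use and separate handling of near-identical copies are not given in the sources used here.

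Expected counts were rounded. Genes were kept by filterByExpr (13581 of 17710), scaled by TMM and tested with edgeR 4.0.16 (R 4.3.3) by the robust quasi-likelihood F test with group as the only term, Benjamini-Hochberg adjusted over all tested genes at 0.05, and by glmTreat against 2-fold. Fold changes are XEN over ES. CPM values are TMM-scaled, and standard errors of log2 fold changes were computed from log2 CPM values (prior count 2) of both groups. The common biological coefficient of variation was 4.75%. For a gene at 0 in a group, the fold was bounded with 3 counts summed over that group, without the counting error of the other group. Library pairs within groups had a chi-square per degree of freedom of 2.44 or more, so none were alike within sampling noise. The pipeline was tested on simulated data.

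The members and lists were chosen with earlier results of these data known. Named were the members, their 3 nearest genes on each side and 3 most similar genes, and of each list up to 3 called genes per direction with the largest change and a mean of at least 5 CPM, with the most abundant member; the text gives a part of these, and it says where a gene was named outside this rule. Neighbours and promoters came from tables of another build (GRCm38.p6), matched by gene identifier for 95.0% of tested genes and 7 of 7 members; 2 members had a promoter entry. Alternatives were other scalings, filters and tools (DESeq2 1.42.0, limma 3.58.1), a replicate block and each library left out. Summing unnamed models with a member was added after the data were seen.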

Additional observations from a re-analysis of the deposited data

How the results depend on the processing

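Over 17 other settings, 102 of 102 recomputed log2 fold changes of the 6 tested genes kept their direction and stayed past the threshold. For Dppa2, Dppa4 and Dppa5a this was nearly fixed, since they passed the filter only through ES libraries. Of all genes that passed so, 95.9% were called lower. The ranges of the log2 fold changes were -12.28 to -10.19 for Dppa5a, -7.79 to -4.65 for Dppa4, -7.13 to -4.05 for Dppa2, -3.30 to -3.05 for Utf1, -2.76 to -2.52 for Fbxo15 and -1.60 to -1.43 for L1td1. The smallest sizes of the Dppa genes came from FPKM with a pseudocount, which understates changes of genes near 0. Whether the replicate letters pair samples is not stated in the labels. Correlations of deviations were small (0.0327, 0.00761 and 0.0199 for A, B and C), though each XEN library correlated best with its own letter in 3 of 3. With a replicate block 6 members were again lower. Without composition factors the median over all genes moved by -0.13 and with upper-quartile factors by -0.15 on the log2 scale. The lower count of the L1TD1 list was 4 with upper-quartile factors and with limma-trend on log2(FPKM + 0.1) and log2(FPKM + 1), against 2. With a mean of at least 1 CPM the trophoblast list held 1 lower and 1 higher gene, against 2 and 3, since fewer were tested. Higher pluripotency regulators ranged from 1 to 2 with 1 library left out. The log2 ratio of the summed FPKM was -4.51, and -2.33 without Dppa5a, its most abundant member. The bound of Dppa3 ran from 6.94 to 12.3 with 1 library left out; depth limits this gene in both groups.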
